A study of Arabidopsis thaliana with 10 samples.

Results

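Expansins are small secreted proteins of the plant cell wall, and 35 of the 38303 loci in the deposited tables belong to the family. Members were chosen by name alone: the gene symbol begins with EXPA, EXPB, EXLA or EXLB and a number, or the annotated name holds the word expansin. They comprise 25 alpha-expansins (EXPA), 6 beta-expansins (EXPB), 3 expansin-like A proteins (EXLA) and 1 expansin-like B protein (EXLB1). EXP26 was matched by its annotated name, and EXPA19 is annotated as a transcribed pseudogene.

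Messenger RNA of whole 12-day-old Arabidopsis thaliana seedlings of the accession Columbia-0 (Col-0), raised at 23 °C in days of 16 h light and 8 h dark, was sequenced in 10 libraries. They form 5 groups of 2. In the hormone experiment, wild-type Col-0 seedlings received mock or 100 nM brassinolide (BL), the most active brassinosteroid, for 6 h; the sample titles call the mock group non-treatment. In the overexpression experiment, untreated wild-type Col-0 stood beside BEH2-YFP and BZR1-YFP, lines in the same accession that express a yellow fluorescent protein fusion of the transcription factor BEH2 or BZR1 from the constitutive 35S promoter. The study asks whether these related factors of brassinosteroid signalling regulate different genes. Both lines keep their own BEH2 and BZR1 genes, and how many independent transgenic lines the libraries represent is not given in the sources used here.

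Alpha-expansins loosen the wall at acid pH without cutting its polymers, by releasing contacts between cellulose and the matrix polysaccharides, and so let a cell under turgor enlarge. Beta-expansins include the pollen allergens of grasses and act on grass walls. Expansin-like A and B proteins share the fold, but a wall-loosening activity has not been established for them. Brassinosteroids promote cell elongation, and expansin genes are among the cell wall genes long known to respond to growth hormones.

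Each deposited level is an FPKM (sequenced fragments of a gene, scaled to its transcript length and to the mapped total), and the authors give a single pooled value for both libraries of a group. The spread between libraries therefore cannot be shown. The labels name the libraries biological replicates without saying what was replicated, so the p-values cannot be taken beyond these libraries. How the authors' test estimated the spread of each gene is not given in the sources used here. Calls are genes whose deposited q-value is under 0.05, and only these are said to have risen or fallen. Log2 ratios are printed ± 1 standard error, which was derived from the authors' test statistic. The overexpressed genes matched their labels: BEH2 stood at 25.8 FPKM in untreated Col-0 and 2477 FPKM in BEH2-YFP, and BZR1 at 13.8 FPKM in untreated Col-0 and 1265 FPKM in BZR1-YFP. No marker of leaf mesophyll, root endodermis, root hairs or flowers was at 0 in all groups. Of 5 endodermis and 5 leaf markers 0 were called in any comparison. Of 4 flower markers 0 were called with BL, 2 fell in BEH2-YFP (AP1 and PI) and 1 fell in BZR1-YFP (AP1), with summed levels of 11.9 FPKM in untreated Col-0, 3.31 in BEH2-YFP and 6.68 in BZR1-YFP. Over all tested genes 5.46% were called with BL, 4.53% fell in BEH2-YFP and 0.478% fell in BZR1-YFP.

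The 35 genes lie on all 5 chromosomes. Of the 34 with a coding sequence, 14 have 3 coding exons, 10 have 2, 9 have 4 and 1 has 5, and their coding lengths run from 672 to 939 bases. EXPA21 to EXPA25 and EXP26, which are 6 of the genes, form an array on chromosome 5 between positions 15726243 and 15740605 (TAIR10.1). Cuffdiff, the authors' program, tested 23 members in the hormone table and 21 of these in both overexpression tables. The other 12 were tested in no table, among them 8 listed at 0 in all 5 groups, and none of the 12 exceeded 0.319 FPKM. They were EXPA2, EXPA12, EXPA19, EXPA22 to EXPA25, EXP26, EXPB2, EXPB4, EXPB5 and EXPB6. EXPA20 and EXPA21 were tested with BL only, stayed under 1 FPKM, and overlap a gene on the opposite strand by 1061 and 964 bases; the use of strand in counting is not given in the sources used here.

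Coding sequences were at least 90% identical in 2 of 561 pairs, EXPA22 with EXP26 (97.7%) and EXPA23 with EXPA25 (97.1%), and none of these 4 genes was tested. Among tested members the closest pair was EXLA1 and EXLA3 at 86.0%, neighbours on chromosome 3 with 2012 bases between them. For the other tested members the identity with the nearest relative ranged down to 51.3%, the value of EXLB1.

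EXPA1 had the highest level of the family in every group. It stood at 92.7 FPKM in mock, 151 with BL, 238 in untreated Col-0, 212 in BEH2-YFP and 238 in BZR1-YFP, which was between 26.4% and 31.9% of the summed family FPKM of each group. The next highest gene differed between groups: EXPA6 in mock (44.4 FPKM), EXPA8 with BL (47.3 FPKM) and in untreated Col-0 (131 FPKM), EXLA1 in BEH2-YFP (94.6 FPKM) and EXPA4 in BZR1-YFP (89.6 FPKM). Summed over all 35 genes, the level was 351 FPKM in mock, 473 with BL, 802 in untreated Col-0, 674 in BEH2-YFP and 769 in BZR1-YFP. By subfamily, alpha-expansins held 295 FPKM in mock, 387 with BL, 692 in untreated Col-0, 489 in BEH2-YFP and 646 in BZR1-YFP. Expansin-like A genes held 17.1, 38.6, 16.5, 107 and 23.5 FPKM in the same order, so BEH2-YFP stood highest. Mock and BL were normalised in a different Cuffdiff run from the other 3 groups.

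**Figure D1:**
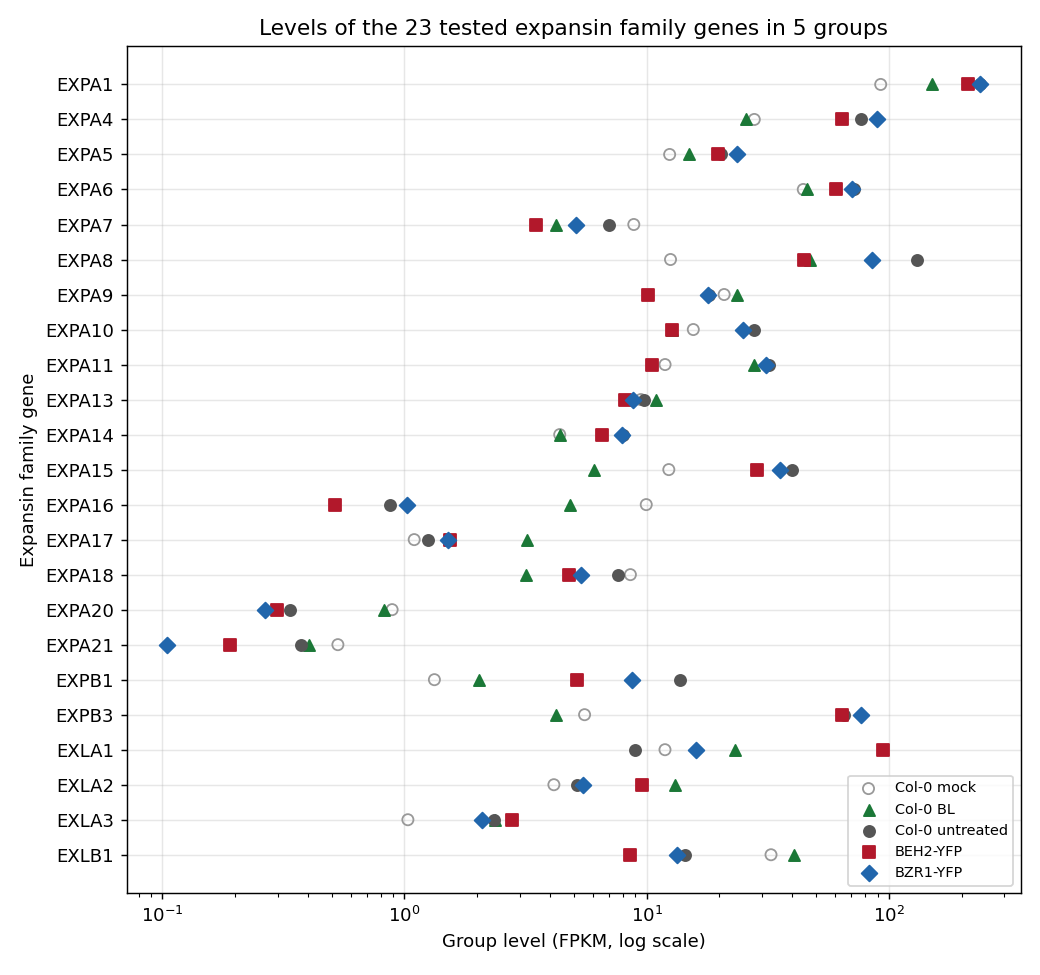
Levels of the 23 tested expansin family genes (vertical axis) in the 5 groups, in FPKM on a log axis; each point is 1 group value pooled by the authors over 2 libraries, so there are no error bars. EXPA1 lies farthest right in every group, and the EXLA1 point of BEH2-YFP (94.6 FPKM) stands apart from the other EXLA1 points (8.98 to 23.2 FPKM).

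The first comparison is the response of wild type to the hormone. With BL, of 23 tested members 6 rose and 4 fell, or 43.5%, where 5.46% of all 22864 tested genes were called (3.01% higher and 2.45% lower). The rising genes were EXPA1, EXPA8, EXPA11, EXPA17, EXLA2 and EXLA3, and the falling genes EXPA7, EXPA15, EXPA16 and EXPA18. The median log2 ratio of the tested members was 0.18, beside 0.00 over all tested genes. In whole seedlings, fewer cells of a type and less RNA per cell cannot be told apart.

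EXPA8 (AT2G40610, chromosome 2, 16948791 to 16950705) stood at 12.6 FPKM in mock and 47.3 with BL, the largest rise of the family (3.77-fold, log2 1.91 ± 0.18). EXPA11 (AT1G20190, chromosome 1, 6998335 to 6999839) went from 11.9 to 27.8 FPKM, a rise of 2.33-fold (log2 1.22 ± 0.18). EXPA1 (AT1G69530, chromosome 1, 26141726 to 26143538), known from guard cells, went from 92.7 to 151 FPKM, which is 1.62-fold (log2 0.70 ± 0.15). In absolute level EXPA1 gained the most FPKM of the family. EXPA17 (AT4G01630), which acts in lateral root formation, rose from 1.10 to 3.21 FPKM (2.92-fold, log2 1.55 ± 0.34). Of the expansin-like A genes, EXLA2 (AT4G38400) rose from 4.14 to 13.1 FPKM (3.15-fold, log2 1.66 ± 0.23) and EXLA3 (AT3G45960) from 1.03 to 2.36 FPKM (2.28-fold, log2 1.19 ± 0.33). The closely related EXLA1 stood at 11.9 FPKM in mock and 23.2 with BL without a call (the authors' deposited table gives q = 0.25).

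All 4 falls were close to 2-fold or somewhat larger. EXPA18 (AT1G62980, chromosome 1, 23331563 to 23333246) fell 2.70-fold, from 8.58 to 3.18 FPKM (log2 -1.43 ± 0.24). EXPA7 (AT1G12560, chromosome 1, 4276505 to 4277969) fell 2.09-fold, from 8.86 to 4.23 FPKM (log2 -1.07 ± 0.24). EXPA7 and EXPA18 are the expansins known from root hairs. EXPA16 (AT3G55500) went from 9.97 to 4.85 FPKM (2.06-fold lower) and EXPA15 (AT2G03090) from 12.4 to 6.04 FPKM (2.05-fold lower), with standard errors of 0.22 and 0.20 on the log2 scale. Beta-expansins were not called with BL: EXPB1 stood at 1.33 and 2.02 FPKM and EXPB3 at 5.55 and 4.22 FPKM. EXLB1 stood at 32.7 and 40.6 FPKM and was not called either.

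The root hair expansins were read beside 7 other root hair genes. Of these 3 fell with BL, namely the wall protein genes PRP3 (2.60-fold), PRP1 (2.18-fold) and LRX1 (2.08-fold), and 0 of the 7 rose. Over all tested genes 2.45% fell with BL and 3.01% rose. The summed level of the 7 genes was 76.4 FPKM in mock and 40.0 with BL, and that of 5 endodermis genes was 78.1 and 88.1 FPKM. In BEH2-YFP 6 of the 7 root hair genes fell, beside 4.53% of all tested genes. Their sum went from 46.9 FPKM in untreated Col-0 to 23.2. The endodermis sum went from 74.4 to 61.1 FPKM and the leaf sum from 35912 to 30988 FPKM, with 0 genes of either list called. EXPA7 (6.996 and 3.49 FPKM) and EXPA18 (7.62 and 4.80 FPKM) were lower but not called, with q-values of 0.0713 and 0.107 in the authors' deposited table. Adjusted within the BEH2-YFP table alone, EXPA7 passed (adjusted p = 0.041). In BZR1-YFP the root hair sum was 35.9 FPKM with 0 of 7 called, where 1.62% of all tested genes were. EXPA7 and EXPA18 stood at 5.12 and 5.36 FPKM there. EXPA7 overlaps AT1G12570 on the opposite strand by 23 bases. That gene stood at 0.433 FPKM in mock, 0.183 with BL, 2.98 in untreated Col-0, 1.11 in BEH2-YFP and 2.86 in BZR1-YFP. Its fall in BEH2-YFP was called (q = 0.00602 in the authors' deposited table), and its part in the EXPA7 values was not tested. The part of root hair number in the values of EXPA7, EXPA18 and the root hair genes was not tested.

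The 250 bases upstream of the EXPA7 and EXPA18 gene starts were compared for the longest stretch they share, a search chosen after their values were seen. It was 8 bases long and starts 242 bases upstream of EXPA7 and 32 bases upstream of EXPA18. At EXPA18 it lies within AT1G62978, an annotated gene on the opposite strand that overlaps EXPA18 by 46 bases. AT1G62978 stood at 0 FPKM in all groups. The stretch is given in capitals, with 11 bases on each side, from the TAIR10.1 genome of RefSeq. It is shown because the root hair expansins fell together with BL.
EXPA7, chr1:4276252-4276281, plus strand: tagaacctgctCGCACGTCaacttatacta
EXPA18, chr1:23331520-23331549, plus strand: acaaacatgaaCGCACGTCcattacttact
The 8 bases hold CGCACG, the reverse complement of CGTGCG, a form of the brassinosteroid response element (BRRE) that BZR1 binds. Root hair elements and other known elements were not searched for, so the stretch may hold one of these as well. On either strand the 8 bases were found in 22 of 27441 protein-coding promoters of this length (0.0802%). The 2 members that hold them are EXPA7 and EXPA18, from which the stretch was taken, so this count was fixed by the search. How often 2 windows of this length share some stretch of 8 bases was not tested. A match describes the letters only and is no evidence of binding.

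The second comparison sets the BEH2 overexpressor against its control. In BEH2-YFP, of 21 tested members 6 fell and 2 rose, or 38.1%, where 11.8% of all 22729 tested genes were called (4.53% lower and 7.31% higher). The falls were those of EXPA8, EXPA9, EXPA10, EXPA11, EXPB1 and EXLB1, and the rises those of EXLA1 and EXLA2. No alpha- or beta-expansin was called higher, and 17 of the 21 had a lower value in BEH2-YFP, with a median log2 ratio of -0.29 beside -0.01 over all tested genes.

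EXPA11 fell 3.04-fold, from 32.0 to 10.5 FPKM (log2 -1.60 ± 0.20). EXPA8 fell 2.93-fold, from 131 to 44.6 FPKM (log2 -1.55 ± 0.19). EXPB1 (AT2G20750, chromosome 2, 8940833 to 8942706) fell 2.68-fold, from 13.8 to 5.16 FPKM (log2 -1.42 ± 0.22). These genes, of the alpha and the beta subfamily, each dropped to less than 0.4 times the control level. EXPA10 (AT1G26770), known for its effect on leaf growth, fell 2.19-fold, from 27.8 to 12.7 FPKM (log2 -1.13 ± 0.21). EXPA9 (AT5G02260) fell from 18.1 to 10.103 FPKM (1.80-fold, log2 -0.84 ± 0.20) and EXLB1 (AT4G17030) from 14.5 to 8.51 FPKM (1.70-fold, log2 -0.77 ± 0.22).

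Expansin-like A genes moved the other way. EXLA1 (AT3G45970, chromosome 3, 16896166 to 16897308) rose 10.5-fold, from 8.98 to 94.6 FPKM (log2 3.40 ± 0.50), and so passed every other member but EXPA1 in this line. EXLA2 rose 1.86-fold, from 5.17 to 9.62 FPKM (log2 0.89 ± 0.25). EXLA3, the neighbour of EXLA1, stood at 2.35 and 2.79 FPKM and was not called. The annotated end of EXLA1 overlaps that of the histone gene HTB9 on the opposite strand by 22 bases. HTB9 stood at 86.1 FPKM in untreated Col-0 and 75.4 in BEH2-YFP. A long noncoding RNA gene, AT3G07315, shares the Cuffdiff locus and the strand of EXLA1 without overlapping it. AT3G07315 stood at 381 FPKM in untreated Col-0 and 316 in BEH2-YFP. The part of HTB9 and AT3G07315 in the EXLA1 values was not tested. The standard error of EXLA1 was 0.50 on the log2 scale, above the median of 0.21 over the tested members in this table.

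**Figure D2:**
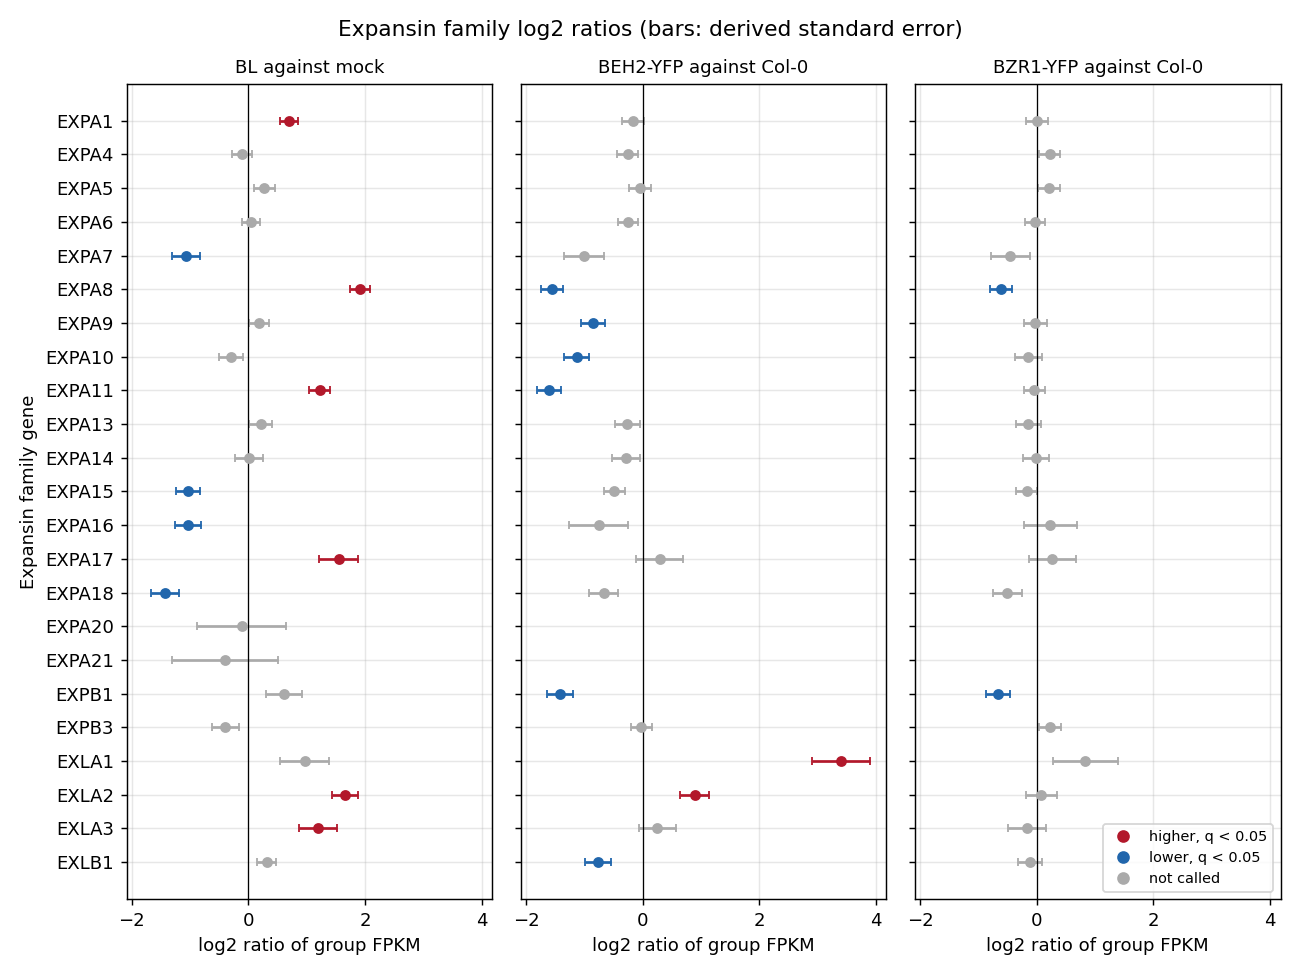
Log2 ratios of group FPKM for the tested expansin family genes with BL, in BEH2-YFP and in BZR1-YFP (horizontal axes), with bars of 1 standard error derived from the deposited test statistic; colours mark genes called higher or lower at q under 0.05. EXPA8 and EXPA11 lie to the right of 0 with BL (log2 1.91 and 1.22) and to the left of 0 in BEH2-YFP (log2 -1.55 and -1.60).

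The third comparison does this for BZR1. In BZR1-YFP, of 21 tested members 2 fell and 0 rose, or 9.52%, where 1.62% of all 22605 tested genes were called (0.478% lower and 1.15% higher). EXPA8 stood at 131 FPKM in untreated Col-0 and 85.2 in BZR1-YFP (1.54-fold lower, log2 -0.62 ± 0.19). EXPB1 stood at 13.8 and 8.72 FPKM (1.58-fold lower, log2 -0.66 ± 0.21). The deposited q-values of the overexpression tables were adjusted over more than a single table. With p-values adjusted within the BZR1-YFP table alone neither gene was called (adjusted p = 0.109 for EXPA8 and 0.14 for EXPB1), and 0.863% of all tested genes were. The median log2 ratio of the members was -0.03, beside 0.00 over all tested genes. By Cuffdiff's unadjusted p-values 3 members were under 0.05, EXPA18 being the other, all of them lower in BZR1-YFP, beside 5.48% of all tested genes. EXPA1 (238 and 238 FPKM), EXPA6 (71.9 and 70.4 FPKM) and EXPA11 (32.0 and 31.1 FPKM) were within 1.03-fold of the control. EXLA1 stood at 8.98 FPKM in untreated Col-0 and 16.0 in BZR1-YFP without a call (the authors' deposited table gives q = 0.631).

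The effects of both lines were then set against each other by the difference of their log2 ratios, which amounts to BEH2-YFP over BZR1-YFP. Both ratios share the untreated Col-0 group, whose error is counted in each, so the standard error of the difference is too wide. Of 21 members 3 differed at an adjusted p under 0.05, or 14.3%, where 3.59% of all 22336 genes did (1.28% lower and 2.31% higher in BEH2-YFP). EXPA11 was lower in BEH2-YFP than in BZR1-YFP by 2.95-fold (log2 difference -1.56 ± 0.27, two-sided normal test with Benjamini-Hochberg adjustment, adjusted p = 1.38e-06). EXPA8 was lower by 1.91-fold (log2 difference -0.93 ± 0.27, adjusted p = 0.0168) and EXLA1 higher by 5.93-fold (log2 difference 2.57 ± 0.75, adjusted p = 0.0208). When each standard error was taken from the deposited p-value in place of the test statistic, these calls ended (adjusted p = 0.0646 for EXPA11, 0.399 for EXPA8 and 0.241 for EXLA1). The deposited p-values reach no lower than 5e-05, so standard errors taken from them are too wide for genes at that floor. EXPA10 (12.7 FPKM in BEH2-YFP and 25.1 in BZR1-YFP) and EXPA9 (10.103 and 17.9 FPKM) had adjusted p-values of 0.0535 and 0.0817 and were not called.

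The hormone and the BEH2 line moved part of the family in opposite directions. The BEH2 transcript itself fell 7.75-fold with BL, from 53.5 to 6.91 FPKM, and its part in the expansin ratios was not tested. The log2 ratio with BL and that in BEH2-YFP share no library, and their difference was called for 7 of 21 members, or 33.3%, where 9.06% of all 22079 genes were called. It was above 0 for 6 members (3.78% of all genes) and below 0 for EXLA1 (5.28% of all genes). EXPA8 and EXPA11 rose with BL and fell in BEH2-YFP, with log2 differences of 3.47 ± 0.26 (adjusted p = 2.32e-38) and 2.82 ± 0.27 (adjusted p = 8.08e-23) by the normal test. Values this small rest on the far tail of the normal curve, since the deposited p-values reach no lower than 5e-05. With standard errors taken from the p-values, the same test gave both genes an adjusted p of 1.27e-05. EXPB1 followed at 2.02 ± 0.38, then EXLB1 at 1.08 ± 0.28, EXPA9 at 1.03 ± 0.27 and EXPA1 at 0.87 ± 0.24. EXLA1 differed the other way, by -2.44 ± 0.65 on the log2 scale (adjusted p = 0.0036), a call that ended with standard errors taken from the p-values (adjusted p = 0.101). Of the 21 members 10 had ratios of opposite sign, and all 10 were higher with BL and lower in BEH2-YFP. The share of opposite signs over all genes was not computed, and 17 of the 21 were lower in BEH2-YFP. Some of the 10 had a ratio within 1 standard error of 0, EXPA14 with BL being an example. Only EXPA8 and EXPA11 were called in both comparisons with opposite signs.

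**Figure D3:**
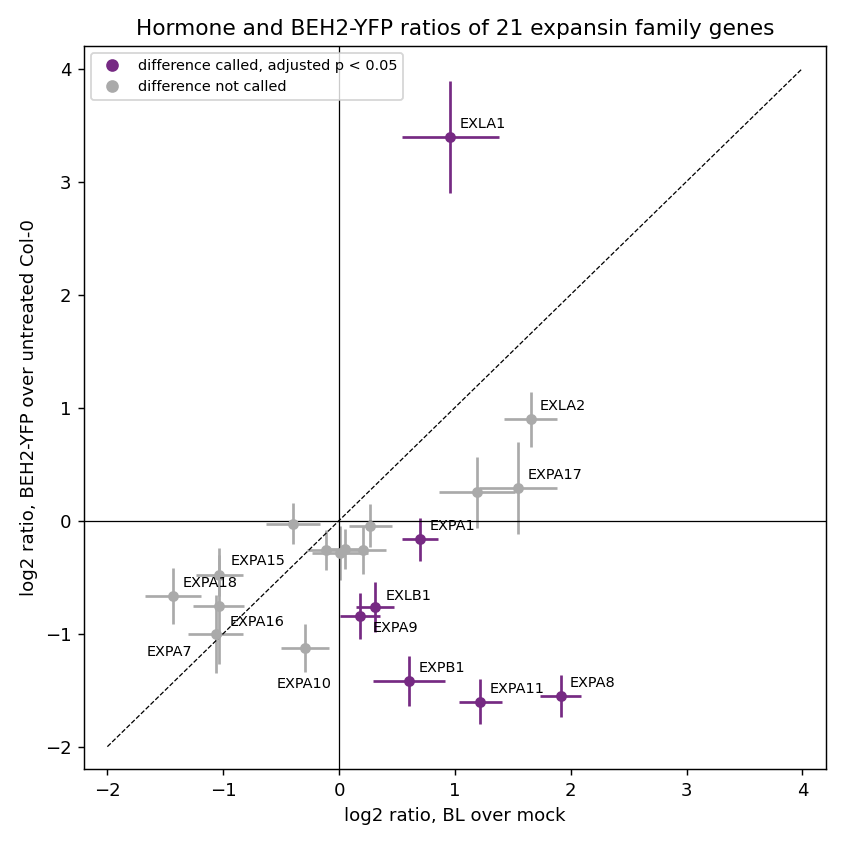
Log2 ratio with BL over mock (horizontal axis) and in BEH2-YFP over untreated Col-0 (vertical axis) for 21 expansin family genes, with bars of 1 derived standard error; the dashed line marks equal ratios and purple points the 7 genes whose difference was called. EXPA8, EXPA11 and EXPB1 lie at the lower right, with log2 ratios in BEH2-YFP of -1.55, -1.60 and -1.42, and EXLA1 at the top (3.40).

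EXLA2 was the member that rose in both, 3.15-fold with BL and 1.86-fold in BEH2-YFP, and its difference of 0.76 ± 0.34 (log2) was not called. The members that fell with BL also had lower values in BEH2-YFP without being called there: EXPA15 stood at 40.0 FPKM in untreated Col-0 and 28.6 in BEH2-YFP, and EXPA16 at 0.875 and 0.518 FPKM. For EXPA7 the difference between the ratios was -0.06 on the log2 scale, with a 95% interval from -0.89 to 0.76.

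The levels of the other called members complete the picture over all groups. EXPA9 stood at 20.9 FPKM in mock and 23.7 with BL, and EXPA10 at 15.6 and 12.7 FPKM, neither called with the hormone. EXPA17 stood at 1.26 FPKM in untreated Col-0, 1.54 in BEH2-YFP and 1.51 in BZR1-YFP. In BZR1-YFP, EXPA15 stood at 35.5 FPKM, EXPA16 at 1.03, EXLA2 at 5.44, EXLA3 at 2.09 and EXLB1 at 13.3, none of them called. EXPA4, called nowhere, stood at 27.9 FPKM in mock, 25.8 with BL, 76.9 in untreated Col-0, 64.3 in BEH2-YFP and 89.6 in BZR1-YFP.

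BL against BZR1-YFP gave 4 called differences of 21, or 19.0%, where 2.44% of all 22043 genes were called, and all 4 were above 0 (1.12% of all genes, with 1.32% below 0). These were EXPA8 at 2.53 ± 0.26, EXLA2 at 1.58 ± 0.35, EXPB1 at 1.27 ± 0.38 and EXPA11 at 1.26 ± 0.26 on the log2 scale. With standard errors from the deposited p-values the calls of EXPA8 and EXPA11 held, and those of EXLA2 (adjusted p = 0.0651) and EXPB1 (adjusted p = 0.0556) ended.

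Promoter sequences are shown for the members called in at least 2 of the 3 comparisons, EXPA8, EXPA11, EXPB1 and EXLA2, and for EXLA1, the gene with the largest rise. Each is the 250 bases before the annotated gene start, 5′ to 3′ on the strand of the gene, from the TAIR10.1 genome of RefSeq. Capitals mark CGTGTG and CGTGCG (BRRE) and CACGTG (G-box) on either strand.
EXPA8, chr2:16950706-16950955, minus strand: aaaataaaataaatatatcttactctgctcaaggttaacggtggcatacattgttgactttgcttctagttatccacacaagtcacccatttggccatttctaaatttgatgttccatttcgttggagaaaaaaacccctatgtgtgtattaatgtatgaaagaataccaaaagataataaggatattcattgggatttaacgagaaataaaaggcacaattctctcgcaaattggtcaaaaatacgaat
EXPA11, chr1:6999840-7000089, minus strand: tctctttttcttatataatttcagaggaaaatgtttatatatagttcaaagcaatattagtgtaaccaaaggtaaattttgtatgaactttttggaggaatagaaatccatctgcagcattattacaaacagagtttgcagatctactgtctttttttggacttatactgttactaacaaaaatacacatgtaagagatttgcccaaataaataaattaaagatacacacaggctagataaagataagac
EXPB1, chr2:8940583-8940832, plus strand: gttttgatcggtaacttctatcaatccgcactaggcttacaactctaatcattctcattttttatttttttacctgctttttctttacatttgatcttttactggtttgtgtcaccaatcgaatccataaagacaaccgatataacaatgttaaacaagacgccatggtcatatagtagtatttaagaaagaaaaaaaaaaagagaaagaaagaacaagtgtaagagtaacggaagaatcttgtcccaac
EXLA2, chr4:17979741-17979990, minus strand: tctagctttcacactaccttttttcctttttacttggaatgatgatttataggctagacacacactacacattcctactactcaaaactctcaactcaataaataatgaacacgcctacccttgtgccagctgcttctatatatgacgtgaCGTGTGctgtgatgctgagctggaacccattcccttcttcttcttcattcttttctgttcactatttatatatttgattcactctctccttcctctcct
EXLA1, chr3:16895916-16896165, plus strand: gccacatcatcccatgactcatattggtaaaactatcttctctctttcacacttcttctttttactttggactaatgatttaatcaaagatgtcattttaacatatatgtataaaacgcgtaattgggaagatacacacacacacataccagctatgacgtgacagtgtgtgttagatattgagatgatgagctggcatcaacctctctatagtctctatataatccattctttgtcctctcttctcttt
The only match in capitals is a CGTGTG in EXLA2, 99 to 94 bases upstream of the gene start. The windows of EXLA1 and EXLA2 share a stretch of 11 bases, tatgacgtgac, 97 bases upstream of EXLA1 and 109 bases upstream of EXLA2. An annotated gene, AT4G38401, overlaps the EXLA2 window.

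Over 34 member promoters of 250 bases, 7 held CGTGTG or CGTGCG on either strand (20.6%), beside 6.71% of 27441 protein-coding promoters. In 1000 bases the counts were 17 of 34 (50%) and 21.1% of all. The 7 were EXPA1, EXPA2, EXPA6, EXPA7, EXPA18, EXPB3 and EXLA2. Of these EXPA1 and EXLA2 rose with BL, EXPA7 and EXPA18 fell, EXPA6 and EXPB3 were not called and EXPA2 was not tested. CACGTG was found in 1 member window of 250 bases, that of the untested EXPB2, beside 6.49% of all promoters. The looser E-box CANNTG, which includes CACGTG, was found in 23 of 34 member windows (67.6%) and in 55.3% of all. None of the 6 members that fell in BEH2-YFP held a BRRE in 250 bases, which says only that these letters are not in this window.

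Both wild-type control groups held very different expansin levels, which bears on every level set across the experiments. Among 20 members with at least 1 FPKM in both, 15 were higher in untreated Col-0 than in Col-0 mock, 8 of them by more than 2-fold, and EXLB1 was more than 2-fold lower. These 9 are 45.0% of the members, where 12.5% of all 19674 such genes lay more than 2-fold apart. The runs were scaled separately: the median log2 ratio over all these genes was -0.20, and relative to it 10 members were more than 2-fold higher and 0 more than 2-fold lower. No test of this difference can be made from the deposited tables.

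EXPB3 stood at 5.55 FPKM in mock and 65.6 in untreated Col-0, 11.8-fold higher, and was called in none of the comparisons. EXPA8 (12.6 and 131 FPKM) was 10.4-fold higher in untreated Col-0, and EXPB1 (1.33 and 13.8 FPKM) also 10.4-fold. For both genes the gap between the controls exceeds any change within an experiment. EXPA16 went the other way, with 9.97 FPKM in mock and 0.875 in untreated Col-0, 11.4-fold lower. EXLB1 stood at 32.7 FPKM in mock and 14.5 in untreated Col-0. The leaf gene CAB2, 1 of several near-identical chlorophyll-binding protein genes, also differed, with 9.33 FPKM in mock and 4503 in untreated Col-0, while its relative CAB1 stood at 5233 and 11773 FPKM. The summed leaf marker level was 16192 FPKM in mock and 35912 in untreated Col-0, and the part of tissue makeup, growth conditions or processing in the expansin levels was not tested.

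**Figure D4:**
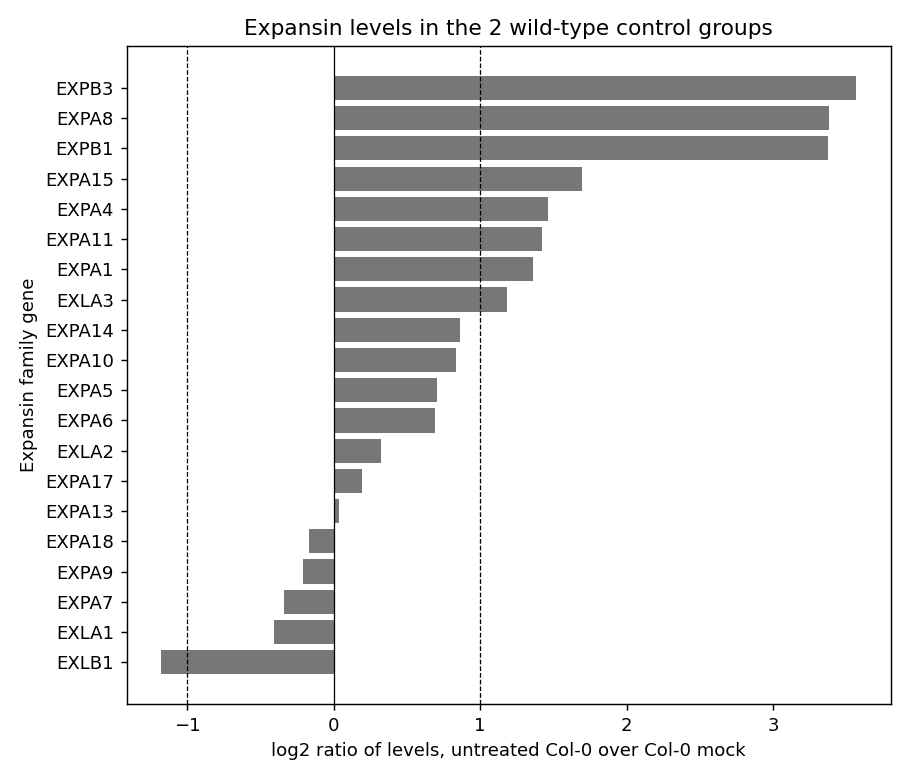
Log2 ratio of the level in untreated Col-0 to that in Col-0 mock (horizontal axis) for the 20 expansin family genes with at least 1 FPKM in both groups; bars start at 0, dashed lines mark 2-fold, and there are no error bars because each level is 1 pooled value. EXPB3, EXPA8 and EXPB1 have bars beyond 3, and EXLB1 is the only gene beyond -1.

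Alpha-expansins act in walls acidified by proton pumps of the plasma membrane (AHA), which SAUR proteins keep active by inhibiting phosphatases of the PP2C.D group. Of 26 such genes 24 were tested, and with BL 6 rose and 2 fell, beside 3.01% higher and 2.45% lower over all tested genes. All 6 SAUR genes, SAUR19 to SAUR24, rose, SAUR20 the most (15.3-fold, from 0.759 to 11.6 FPKM). The proton pump AHA7 (HA7 in the tables) fell 1.92-fold, from 8.42 to 4.39 FPKM, and the phosphatase gene AT5G66080 (PP2C.D7) fell 15.9-fold, from 3.21 to 0.201 FPKM. The highest pump genes, AHA1 (527 and 487 FPKM) and AHA2 (387 and 405 FPKM), were not called. SAUR19 to SAUR24 are near-identical neighbours whose sharing of reads was not analysed here.

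In BEH2-YFP 7 of the 24 rose and 3 fell, beside 7.31% higher and 4.53% lower over all tested genes. AHA1 rose 1.64-fold, from 185.9 to 305 FPKM, and AHA2 rose 1.62-fold, from 197 to 319 FPKM, while AHA3 fell 1.54-fold and AHA7 fell 1.75-fold. SAUR20 (2.21-fold), SAUR21 (AT5G18030, 1.82-fold) and SAUR24 (2.30-fold) rose, and so did the phosphatase genes AT4G38520 (PP2C.D5, 1.46-fold) and AT5G06750 (PP2C.D9, 1.52-fold), while PP2C.D7 fell 6.45-fold. SAUR23 went the other way, with 5.30 FPKM in untreated Col-0, 2.43 in BEH2-YFP and 6.85 in BZR1-YFP. Its value in BEH2-YFP was 2.19-fold lower without a call (q = 0.0605 in the deposited table of the authors), and it passed when p-values were adjusted within that table (adjusted p = 0.0347). The difference between the lines was called for SAUR23 by the normal test (log2 difference -1.50 ± 0.46, adjusted p = 0.0369). In BZR1-YFP SAUR20 (1.94-fold), SAUR21 (1.81-fold) and SAUR24 (2.00-fold) rose, and 0 of the 24 fell, beside 1.15% higher and 0.478% lower over all tested genes. With p-values adjusted within the BZR1-YFP table, SAUR24 passed (adjusted p = 0.0371) and SAUR20 did not (adjusted p = 0.0509). At least 2-fold changes at a q-value under 0.1 numbered 4 in BEH2-YFP and 0 in BZR1-YFP.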

How the data were processed

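The submitters' processing notes name TopHat2 2.0.13, Cuffdiff 2.2.0 and the build TAIR10. The authors deposited 12 tables, of which the 3 with all genes were used; their annotation columns name the assembly TAIR10.1. The columns, per the file headers, are FPKM for either group, a log2 fold change without a pseudocount, a test statistic (a score of the authors' Cuffdiff run), a p-value and a q-value. The sources used here do not give strand use or filters, and depth is unknown.

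The standard error is the absolute log2 ratio over the absolute statistic times a constant k (1.43, 1.42 and 1.43 for BL, BEH2-YFP and BZR1-YFP), the median quotient of the p-value's normal deviate and the statistic. Differences of log2 ratios were tested by a two-sided normal test, adjusted by Benjamini and Hochberg over all genes tested in both tables. The planned limma fit needs values per library and was not run. The members, lists and tests were chosen with earlier results of these data known. Members called in a comparison or a difference and the tested members with the 3 highest levels are named with their values; others named were chosen after their values were seen. Coding sequences were aligned globally with Biopython 1.88, and identity is over all alignment columns. Computation used SciPy 1.17.1, pandas 2.3.3 and Python 3.11.15, with figures from matplotlib 3.10.9. Alternatives were thresholds, a filter of 1 FPKM, adjustment within a table, centring, pseudocounts of 0.1 and 1 FPKM, and standard errors from p-values.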

Additional observations from a re-analysis of the deposited data

Results flagged for a closer look

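EXPA11, EXPA8 and EXLA1 stand out because the effects of the overexpression lines differed by a test of the difference itself. Subtracting the log2 ratio in BZR1-YFP from that in BEH2-YFP gave -1.56 on the log2 scale for EXPA11, -0.93 for EXPA8 and 2.57 for EXLA1. These calls ended with standard errors taken from the deposited p-values, which are too wide for genes at the floor of those p-values.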

How the results depend on the processing

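Of 31 alternative counts 21 were within 1.5 times the reported count. The 10 members called with BL were 9 to 10 under every alternative run, and the 8 called in BEH2-YFP were 6 to 11, with all 8 shared under adjustment within the table. The 2 called in BZR1-YFP became 0 at a q-value under 0.01, when 2-fold and a q-value under 0.1 were required, with the filter of 1 FPKM, with adjustment within the table and with centred ratios; by Cuffdiff 3 members had an unadjusted p under 0.05. The 3 differences between the lines became 1 at an adjusted p under 0.01 and 0 with standard errors from the deposited p-values, where 7 members and 9.51% of all genes had an unadjusted p under 0.05. The 4 differences between BL and BZR1-YFP became 2 with those standard errors. At a q-value under 0.1 with a 2-fold ratio, 4 acid growth genes were called in BEH2-YFP, among them SAUR23, which is not among the 10 called at a q-value under 0.05, and 0 in BZR1-YFP, where 5 had an unadjusted p under 0.05 by Cuffdiff. Of 60 alternative values of called members 58 moved by less than their standard error, 2 moved more with a pseudocount of 1 FPKM (EXLA3 and EXPA17 with BL) and 0 reversed. No paired analysis was possible because the deposited tables hold 1 pooled value per group; leaving out each replicate was not run for the same reason.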

Other observations

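EXP3 (AT2G37640), an alpha-expansin that the tables annotate as a Barwin-like protein, is not among the 35 members. It rose with BL, from 42.3 to 59.8 FPKM, and fell in BEH2-YFP, from 36.2 to 21.1 FPKM, with q-values of 0.0444 and 0.00149 in the authors' deposited table. In BZR1-YFP it stood at 34.7 FPKM.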
